A study of Mus musculus with 12 samples.

Results

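Shox2, Tcf7l2, Gbx2, Lhx9, Lhx1, Lhx5 and Mab21l2 are genes of the developing thalamus, the pretectum and the neighbouring midbrain. They were followed by symbol through whole-brain RNA of 12 mouse embryos, as 7 of the 40690 gene identifiers counted, and all 7 were among the 16002 genes that passed the filter on low counts. The genes were chosen on earlier results of the same data, in which Shox2 and Lhx1 led the RKI comparison, so their RKI values are given as a description with no test. The deletion of LC1 did not choose them, and it was tested. The difference between the sexes was tested as well, but in the same RKI embryos, so its values for these genes are not free of that choice.

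All embryos were C57BL/6J at embryonic day 14.5, and polyadenylated RNA of the brain was sequenced. LC1 is a conserved non-coding element near Pou3f2, which encodes a neuronal POU-domain factor. The 4 groups of 3 embryos were RKI homozygous (A1, A10 and A18), carrying on both alleles a human variant knocked into LC1, RKI wild type (A2, A9 and A16), LC1 knockout (7, 22 and 71), with the element deleted, and LC1 wild type (6, 26 and 73). The labels name no Cre line or other limit on the cells that carry either change, and the counts cannot read the genotype, since the element is non-coding. All LC1 embryos were female, and each RKI group held 2 males and 1 female. Mutants and wild types were matched by sex and litter per the labels' protocol, but no label names the litters, and nothing in the labels says how many founder animals or lines stand behind each experiment.

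The thalamus forms from the middle segment of the diencephalon, with the pretectum behind it and the prethalamus in front of it. Transcription factors of the homeodomain, LIM-homeodomain and TCF families divide this field into regions and later fix the identity of its neurons. Tcf7l2, a partner of beta-catenin in Wnt signalling, marks thalamic, habenular and pretectal neurons after their last division. Gbx2 and Lhx9 are homeodomain and LIM-homeodomain factors of thalamic relay neurons, and Shox2 is a homeodomain factor of thalamic neurons. Lhx1 and Lhx5, a closely related pair of LIM-homeodomain genes, are used in several brain regions, and Mab21l2 is a gene of the male-abnormal-21 family with strong expression in the dorsal midbrain and the eye.

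Total counts per library ran from 18192984 to 26566769, and the sex read from the counts was that of the label in 12 of 12. On the first principal component of all genes the 4 male libraries lay apart from the females. Library A16, an RKI wild type, lay farther out again, at 26.09 against at most 13.36 for any other, and results that rest on it are given with and without it. The libraries held brain RNA, with all 8 markers of embryonic brain measured, but little of the hindbrain: 11 of 12 hindbrain genes did not pass the filter, 6 Hox genes had 0 counts in all 12 libraries, and none of the 11 exceeded 11 counts in any library. Cerebellar Atoh1 and Ptf1a reached no more than 4 counts, and the midbrain genes En1 and En2 averaged 0.862 and 0.55 CPM (counts scaled to library size by TMM). The defining genes of hindbrain and cerebellum were therefore absent or nearly so in tissue labelled as whole brain.

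Per unit of transcript length, Tcf7l2 stood highest. The authors' RPKM (reads scaled to transcript length and library size) averaged 30.6 ± 5.48 for Tcf7l2, 14.8 ± 0.962 for Lhx5, 10.6 ± 0.78 for Lhx9, 9.72 ± 1.33 for Lhx1, 5.45 ± 0.954 for Shox2, 5.3 ± 0.739 for Gbx2 and 4.45 ± 1.19 for Mab21l2 (SD, n = 12). Tcf7l2 and Lhx5 each stood clear of their neighbours in this order, while Lhx9 and Lhx1, and likewise Shox2, Gbx2 and Mab21l2, lay within the larger of their SDs of each other. The genes also differed in how much they varied between embryos. The coefficient of variation over the 12 embryos was 26.7% for Mab21l2, 18% for Tcf7l2, 17.8% for Shox2, 14.6% for Gbx2 and 13.8% for Lhx1, against 7.53% for Lhx9 and 6.54% for Lhx5. Without A16 it was 10.5% for Tcf7l2 and 10.2% for Shox2, but still 24.1% for Mab21l2.

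**Figure D1:**
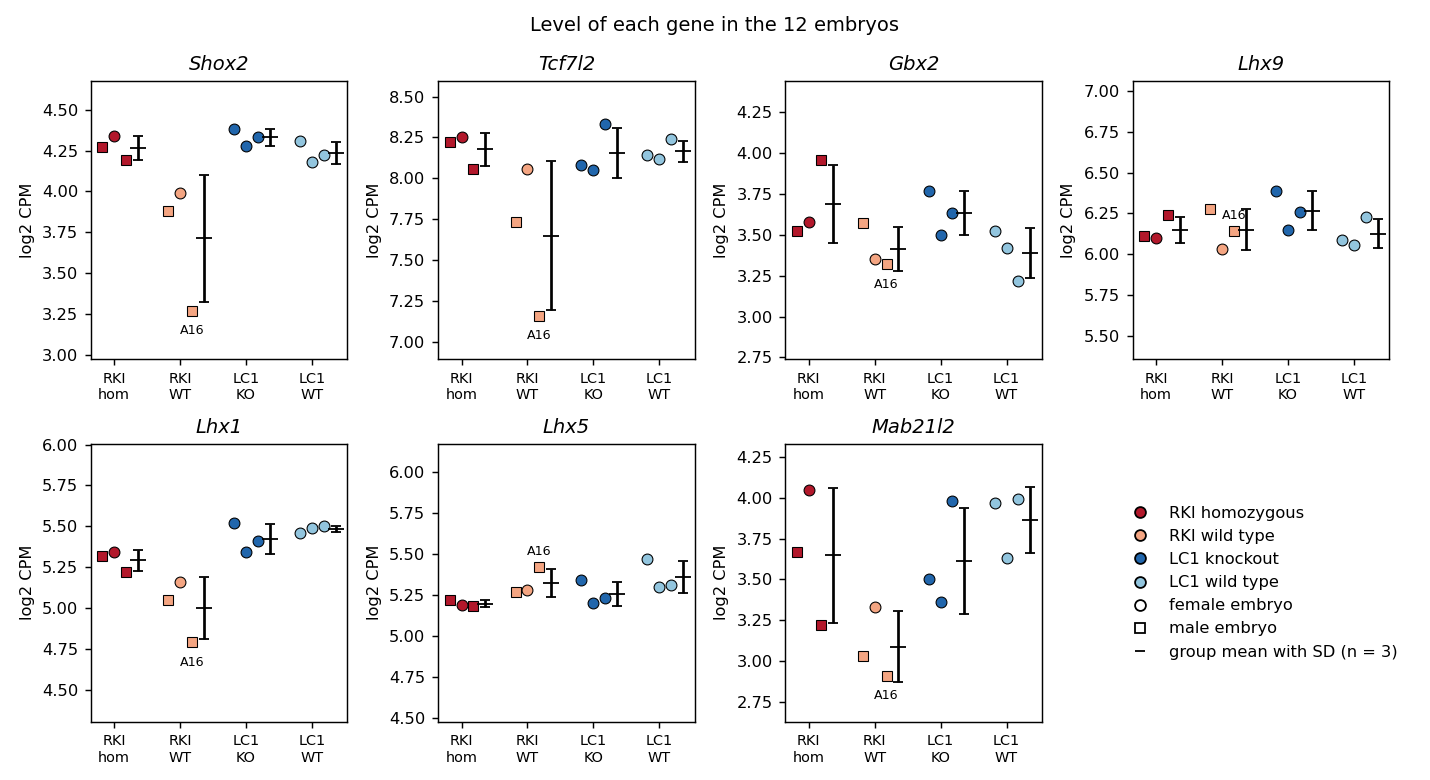
Level of each gene as log2 CPM in each embryo, by group, with circles for females and squares for males, and the group mean with SD (n = 3) beside the points; all panels span the same height in log2 units. The mean of the RKI wild types is the lowest of the 4 groups for Shox2, Tcf7l2, Lhx1 and Mab21l2, with A16 at the bottom of each, while Lhx9 and Lhx5 vary little.

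Shox2 (ENSMUSG00000027833) is a gene of chromosome 3 (66971727 to 66981771, minus strand; GENCODE M21, GRCm38). It stood at 19.2, 20.1 and 18.1 CPM in RKI homozygotes A1, A10 and A18, against 14.6, 15.8 and 9.55 CPM in RKI wild types A2, A9 and A16. It was 20.7, 19.4 and 20.1 CPM in LC1 knockouts 7, 22 and 71, against 19.7, 18.1 and 18.5 CPM in LC1 wild types 6, 26 and 73. All 3 RKI wild types were thus lower than every other embryo, with A16 far below the other 2, and the RKI homozygotes stood among the LC1 embryos. The log2 fold change of RKI homozygotes over wild types was 0.53 with SE 0.117, and 0.35 without A16. In bulk tissue a lower level cannot be told apart between fewer cells that express the gene and less of its RNA per cell.

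Tcf7l2 (ENSMUSG00000024985), on chromosome 19 at 55741820 to 55933654, plus strand, followed Shox2 in the RKI embryos. It was at 298, 305 and 267 CPM in RKI homozygotes A1, A10 and A18, against 212, 267 and 143 CPM in RKI wild types A2, A9 and A16. It was at 270, 266 and 322 CPM in LC1 knockouts 7, 22 and 71, against 283, 278 and 303 CPM in LC1 wild types 6, 26 and 73. The lowest homozygote, A18, and the highest wild type, A9, were at the same CPM to 3 digits, and in the authors' RPKM A18 stood at 30 and A9 at 30.2, so the groups overlapped on that scale. The gap between the RKI groups came from A2 and A16. The log2 fold change for RKI was 0.51 with SE 0.139, and 0.32 without A16.

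Lhx1 (ENSMUSG00000018698) lies on chromosome 11 at 84518284 to 84525535, minus strand. Its level was 39.9, 40.3 and 37.2 CPM in RKI homozygotes A1, A10 and A18, against 33, 35.6 and 27.7 CPM in RKI wild types A2, A9 and A16. In LC1 knockouts 7, 22 and 71 it was 45.7, 40.5 and 42.5 CPM, against 44, 44.8 and 45.1 CPM in LC1 wild types 6, 26 and 73. The homozygotes again lay above the wild types, but here the RKI embryos of both genotypes lay below all 6 LC1 embryos. The log2 fold change for RKI was 0.29 with SE 0.0766, and 0.20 without A16.

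In TMM-scaled CPM, Shox2, Tcf7l2 and Lhx1 put the 6 RKI embryos in the same order, from A16 through A2, A9, A18 and A1 to A10, and in RPKM A9 and A18 change places for Tcf7l2. In CPM they were the 3 members with every homozygote above every wild type, which held for 415 of the 16002 genes tested, or 2.59%. Since this comparison chose the genes, nothing is read from that count. Without A16 the same 3 members still had all homozygotes above the remaining wild types, as did 1138 genes, or 7.11%, a count added after seeing the data. In RPKM, likewise added after seeing the data, the members were 2, Shox2 and Lhx1, among 372 genes, or 2.32%. Without A16 they were the same 2, among 1120 genes, or 7%. Because these 3 genes ordered the embryos nearly alike, the 250 bases before the RefSeq start of each are shown (GRCm38.p6), 5′ to 3′ on the gene's strand, with capitals marking matches to the motifs listed after them. The windows are chr3:66981772-66982021 on the minus strand for Shox2, chr19:55741560-55741809 on the plus strand for Tcf7l2 and chr11:84525535-84525784 on the minus strand for Lhx1.
Shox2: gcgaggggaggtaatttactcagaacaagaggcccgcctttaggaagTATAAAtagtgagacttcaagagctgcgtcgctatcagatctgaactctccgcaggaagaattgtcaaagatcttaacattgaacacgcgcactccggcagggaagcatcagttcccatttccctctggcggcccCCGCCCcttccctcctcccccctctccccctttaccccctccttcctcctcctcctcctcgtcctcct
Tcf7l2: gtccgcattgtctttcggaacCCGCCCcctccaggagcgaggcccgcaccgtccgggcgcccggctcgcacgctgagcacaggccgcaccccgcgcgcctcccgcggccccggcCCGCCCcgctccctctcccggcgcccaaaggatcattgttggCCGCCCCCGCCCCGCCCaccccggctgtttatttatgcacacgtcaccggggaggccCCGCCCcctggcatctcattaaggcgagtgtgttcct
Lhx1: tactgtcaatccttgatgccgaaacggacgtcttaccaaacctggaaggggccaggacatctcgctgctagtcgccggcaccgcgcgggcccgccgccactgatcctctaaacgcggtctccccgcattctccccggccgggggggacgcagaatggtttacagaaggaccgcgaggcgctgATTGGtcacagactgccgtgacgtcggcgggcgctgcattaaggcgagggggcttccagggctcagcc

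The motifs searched, on both strands, were the homeodomain core TAATTA, the TCF/LEF motif ATCAAAG, the POU octamer ATGCAAAT, the GATA motif AGATAA, the TATA box TATAAA, the CCAAT box CCAAT and the GC box GGGCGG. Over the first 250 bases of all 32851 RefSeq windows, 4.84% held the homeodomain core, 3.21% the TCF/LEF motif, 1.6% the octamer, 9.99% the GATA motif, 12.4% a TATA box, 33.8% a CCAAT box and 32.7% a GC box. The Shox2 window held 1 TATA box, 203 bases before the start, and 1 GC box. The Tcf7l2 window held 6 GC boxes, 3 of them overlapping or adjoining in one run, and the Lhx1 window held 1 CCAAT box. The homeodomain core, TCF/LEF, octamer and GATA letters were in none of these 3 windows, and no motif was in all 3, though Shox2 and Tcf7l2 both held the GC box. RefSeq lists another start of Tcf7l2, whose window (chr19:55895071-55895320, plus strand, 40.8% G and C, 7 CpG dinucleotides) is not printed here and held 1 TATA box and 1 GATA motif but no GC box. A match is a run of letters and not a bound site. The windows differed in base composition as well, with 72.8% G and C and 30 CpG dinucleotides for Tcf7l2, 64.8% and 26 for Lhx1, and 55.6% and 11 for Shox2, against medians of 52.4% and 6 over all windows. Windows were found for 6 of the 7 genes, Lhx5 having none in the table used.

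Mab21l2 (ENSMUSG00000057777), on chromosome 3 at 86545581 to 86548629, minus strand, was the most variable member. It was at 12.7, 16.5 and 9.23 CPM in RKI homozygotes A1, A10 and A18, against 8.06, 9.99 and 7.43 CPM in RKI wild types A2, A9 and A16. It was at 11.2, 10.2 and 15.7 CPM in LC1 knockouts 7, 22 and 71, against 15.6, 12.3 and 15.8 CPM in LC1 wild types 6, 26 and 73. Homozygote A18 lay below wild type A9, so the RKI groups overlapped, and the LC1 groups overlapped as well. The log2 fold change for RKI was 0.57 with SE 0.161, and the values without 1 RKI embryo ran from 0.46 to 0.71.

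Gbx2 (ENSMUSG00000034486, chromosome 1 at 89927956 to 89931179, minus strand) shared the RKI pattern of the genes above only in part. A16 was again the lowest RKI embryo, but wild type A2 lay above homozygote A1, so the RKI groups overlapped. Its level was 11.4, 11.9 and 15.5 CPM in RKI homozygotes A1, A10 and A18, against 11.8, 10.1 and 9.91 CPM in RKI wild types A2, A9 and A16. In LC1 knockouts 7, 22 and 71 it was 13.6, 11.2 and 12.3 CPM, against 11.4, 10.6 and 9.22 CPM in LC1 wild types 6, 26 and 73. A18 was the highest of the 12 embryos and set much of the RKI log2 fold change of 0.29 (SE 0.124), which was 0.14 without it. The wild types of RKI averaged 10.6 CPM of Gbx2, and those of LC1 10.4 CPM.

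Lhx9 (ENSMUSG00000019230, chromosome 1 at 138825186 to 138848577, minus strand) was the flattest of the thalamic genes in RKI. It was at 69.1, 68.7 and 75.7 CPM in RKI homozygotes A1, A10 and A18, against 77.6, 65.2 and 70.4 CPM in RKI wild types A2, A9 and A16, a log2 fold change of 0.00 with SE 0.0724. In LC1 knockouts 7, 22 and 71 it was 83.7, 70.8 and 76.5 CPM, against 68.1, 66.4 and 74.9 CPM in LC1 wild types 6, 26 and 73. Embryo A16, lowest for 4 other members, ranked in the middle for Lhx9.

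Lhx5 (ENSMUSG00000029595, chromosome 5 at 120431699 to 120441223, plus strand) ran the other way from its close relative Lhx1 between the RKI groups. It was at 37.2, 36.5 and 36.1 CPM in RKI homozygotes A1, A10 and A18, against 38.6, 38.7 and 42.7 CPM in RKI wild types A2, A9 and A16. In LC1 knockouts 7, 22 and 71 it was 40.3, 36.6 and 37.3 CPM, against 44.4, 39.4 and 39.6 CPM in LC1 wild types 6, 26 and 73. Every RKI homozygote was below every RKI wild type, with a log2 fold change of -0.13 (SE 0.0711), and -0.08 without A16. Lhx5 was the only member with that arrangement, which 492 genes, or 3.07% of those tested, also had, and the comparison being the one that chose the genes, nothing is read from it.

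Over the 7 genes the median RKI log2 fold change was 0.29, beside 0.001 over all genes tested, with 6 values at or above 0 and 1 below. No gene of the 16002 passed the threshold of 0.05 on the adjusted p in RKI by edgeR's quasi-likelihood test, a background of 0%, while 307 had an unadjusted p under 0.05, and DESeq2 and limma-voom also called 0. A16 was the lowest of the 12 embryos for Shox2, Tcf7l2, Lhx1 and Mab21l2. It was the lowest for 2645 genes in all, or 16.5%. Without A16 the median of the 7 was 0.21. Within the males, Shox2 was at 19.2 and 18.1 CPM in homozygotes and at 14.6 and 9.55 CPM in wild types, and within the females at 20.1 CPM in the homozygote and 15.8 CPM in the wild type.

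**Figure D2:**
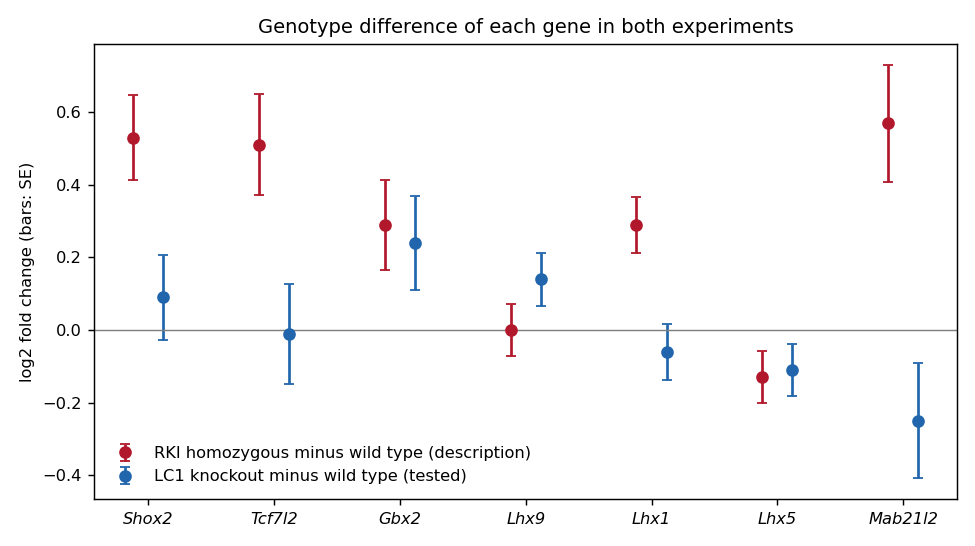
Log2 fold change of each gene with its SE, for RKI homozygotes over wild types in red and LC1 knockouts over wild types in blue. Shox2, Tcf7l2 and Mab21l2 are above 0.5 in RKI, and all LC1 values lie between -0.25 and 0.24.

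Set beside the LC1 wild types, the RKI wild types stood lower for the same 4 genes. The difference in mean log2 CPM, RKI wild type minus LC1 wild type, was -0.53 for Shox2, -0.52 for Tcf7l2, -0.48 for Lhx1 and -0.77 for Mab21l2, where the SDs of the RKI wild types were 0.386, 0.455, 0.187 and 0.218. Without A16, a setting added after seeing the data, the same differences were -0.30 for Shox2, -0.28 for Tcf7l2, -0.38 for Lhx1 and -0.69 for Mab21l2. For Gbx2, Lhx9 and Lhx5 the same difference was 0.02, 0.02 and -0.04. RKI homozygotes minus LC1 wild types gave 0.03 for Shox2, 0.01 for Tcf7l2, -0.19 for Lhx1 and -0.22 for Mab21l2. For Shox2 and Tcf7l2 the homozygotes were thus within 1 SD of the LC1 wild types. These 2 sets of differences share the LC1 wild types, the experiments differ in line and sex, and neither was tested.

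The deletion of LC1 asked whether the brain without the element expresses these genes at another level, and 0 of the 7 passed by edgeR's quasi-likelihood test, with an adjusted p of 1 for each. The background was the same, with 0 of 16002 genes called, or 0%. There were 334 genes with an unadjusted edgeR p under 0.05, and DESeq2 and limma-voom called 0. Shox2 averaged 20 ± 0.68 CPM in LC1 knockouts and 18.8 ± 0.86 CPM in LC1 wild types (SD, n = 3 each), a fold of 1.07 with a 95% interval of 0.9 to 1.26. For Tcf7l2 the means were 286 ± 31.6 CPM in knockouts and 288 ± 13.2 CPM in wild types (SD, n = 3 each), and the fold was 0.994 (95% interval 0.806 to 1.23). An increase above 1.26-fold for Shox2 and above 1.23-fold for Tcf7l2 lies outside these intervals. The intervals use a spread shared by all 12 libraries, with an SE of 0.116 for Shox2 and 0.138 for Tcf7l2. With only the 6 LC1 libraries the SE was 0.086 and 0.0719, and without A16 it was 0.0795 and 0.0722.

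The other thalamic genes stood slightly higher in the knockouts and the midbrain gene lower, none past the threshold. Gbx2 averaged 12.4 ± 1.17 CPM in LC1 knockouts and 10.4 ± 1.1 CPM in LC1 wild types (SD, n = 3 each), with a log2 fold change of 0.24, SE 0.129 and an unadjusted edgeR p of 0.076. Lhx9 averaged 77 ± 6.46 CPM in knockouts and 69.8 ± 4.49 CPM in wild types (SD, n = 3 each), with 0.14, SE 0.0731 and an unadjusted edgeR p of 0.0729. Mab21l2 averaged 12.4 ± 2.93 CPM in knockouts and 14.6 ± 1.98 CPM in wild types (SD, n = 3 each), with -0.25, SE 0.158 and an unadjusted edgeR p of 0.133. The 2 related LIM genes had LC1 log2 fold changes of -0.06 with SE 0.0761 for Lhx1 and -0.11 with SE 0.072 for Lhx5. In the authors' deposited table Gbx2, Lhx9 and Mab21l2 have an unadjusted p of 0.0316, 0.0392 and 0.0313 and an adjusted p of 0.937.

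In each of the 7 genes the LC1 groups overlapped. Knockouts lay all above wild types in 0 members, against 537 genes or 3.36% of those tested, and all below in 0 members, against 609 genes or 3.81%. Exact two-sided permutation tests of log2 CPM gave p from 0.2 for Shox2, Gbx2 and Lhx9 to 1 for Tcf7l2, where 3 embryos against 3 allow none under 0.1. The median of the 7 log2 fold changes was -0.01, beside -0.003 over all genes tested. The spread between embryos was set beside the counting error. In the LC1 libraries Shox2 had 331 to 498 counts, which give a counting error of 0.065 to 0.079 on the log2 scale, and its SD within LC1 groups was 0.059. For Tcf7l2, with 5060 to 6839 counts, the counting error was 0.017 to 0.02 and the SD 0.12.

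Males were compared with females in the RKI experiment, where both genotypes include both sexes. Of 16002 genes 8 passed by edgeR, or 0.05%, with 12 by DESeq2 and 8 by limma-voom, and 829 had an unadjusted edgeR p under 0.05, while 0 of the 7 members passed. The smallest unadjusted p among the members were 0.0104 for Mab21l2, with a log2 fold change of males over females of -0.49 (SE 0.167), and 0.0314 for Tcf7l2, with -0.36 (SE 0.145), both with an edgeR adjusted p of 0.89. Tcf7l2 passed with no filter on low counts, with an adjusted p of 0.00138 and a log2 fold change of -0.34, and under no other setting. Mab21l2 was at 12.7 and 9.23 CPM in homozygous males against 16.5 CPM in the homozygous female, and at 8.06 and 7.43 CPM in wild-type males against 9.99 CPM in the wild-type female. The female was the highest of its genotype for Shox2, Tcf7l2, Lhx1 and Mab21l2 in both genotypes, and for Gbx2 and Lhx9 it was the highest in neither. There is 1 female a genotype, so sex cannot be told apart from these 2 embryos. The RKI embryos are also those of the comparison that chose the genes, so the members' p-values for sex serve as a description only.

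Covariation was described over the 12 embryos and within each experiment, since all points of a library share its depth, its scaling and the cell makeup of its tissue. Among the 21 pairs of members, Pearson's r of log2 CPM had a median of 0.14 and ran from -0.43 to 0.94. Shox2 and Tcf7l2 had r of 0.94 and Spearman's rho of 0.66 over 12 embryos, with r of 0.98 in the 6 RKI and -0.02 in the 6 LC1 embryos. Their r was 0.75 without A16 and 0.41 without the 2 embryos farthest from the Shox2 median, A16 and A2. Shox2 and Lhx1 behaved alike, with 0.90 over 12 embryos (rho 0.66), 0.99 in RKI, -0.10 in LC1, and 0.61 without those 2 embryos. The tie of Shox2 to Tcf7l2 and Lhx1 was therefore seen in the RKI experiment, where rho was 1 for both pairs. Over the 12 embryos it weakened without A16 and A2, which are both RKI wild types. In LC1 the spread of Shox2 was no larger than its counting error, so the r values there carry little information on it.

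Tcf7l2 and Mab21l2 went together in both experiments. Their r was 0.81 over 12 embryos (rho 0.94), 0.80 in the 6 RKI and 0.83 in the 6 LC1 embryos, 0.86 without A16 and 0.85 without the 2 embryos farthest from the median. Gbx2 and Lhx9, the 2 relay-neuron genes, had 0.52 over 12 embryos (rho 0.52), 0.63 in RKI, 0.53 in LC1 and 0.79 without the 2 farthest embryos. Shox2 and Gbx2 had 0.40 over 12 embryos (rho 0.55), 0.55 in RKI and 0.87 in LC1. Shox2 and Lhx5 had -0.39 over 12 embryos (rho -0.14), -0.97 in RKI, 0.10 in LC1 and 0.08 without the 2 farthest. Lhx1 and Lhx5 had -0.09 over 12 embryos (rho 0.29), -0.93 in RKI, 0.58 in LC1 and 0.42 without A16.

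**Figure D3:**
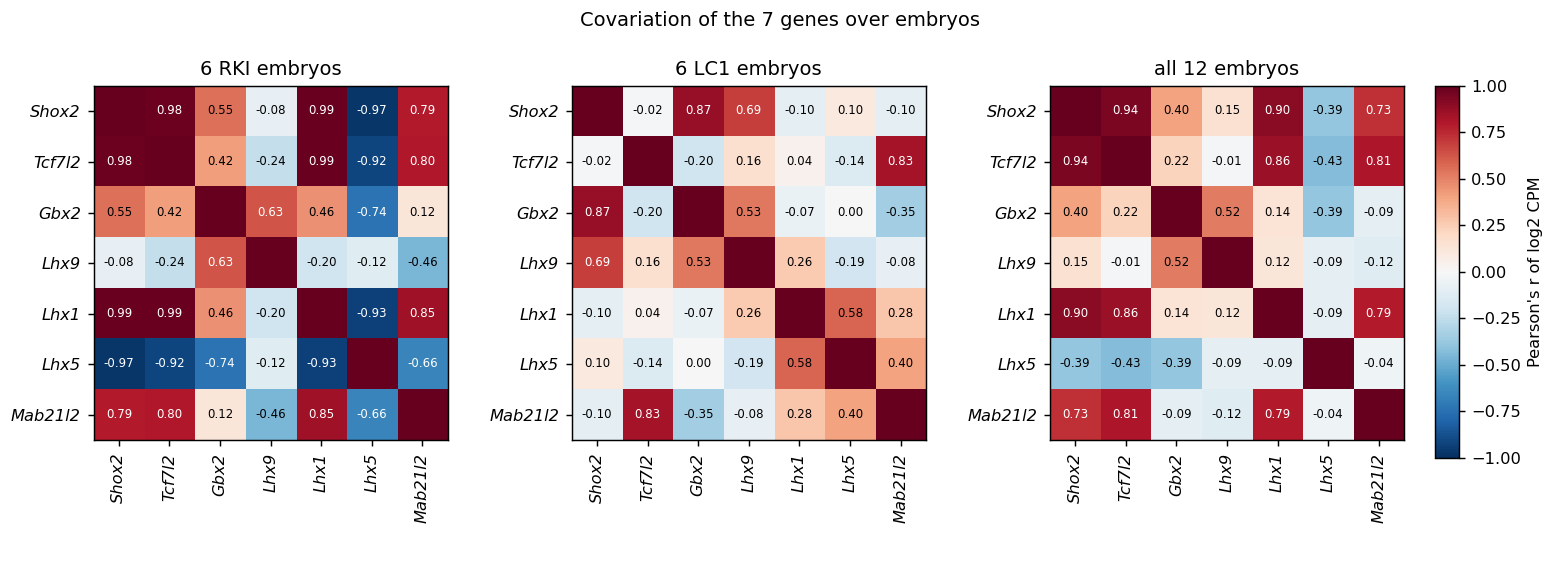
Pearson's r of log2 CPM between the genes, for the 6 RKI embryos, the 6 LC1 embryos and all 12, with red for positive and blue for negative values. Shox2, Tcf7l2 and Lhx1 form a block of 0.98 to 0.99 in RKI, where Shox2 in LC1 has -0.02 with Tcf7l2 and -0.10 with Lhx1, while Tcf7l2 with Mab21l2 is at 0.80 and 0.83.

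Lists of region genes were set beside the members, each summarised per embryo as the mean log2 CPM of its genes minus their mean over the 12 embryos. Rostral thalamus genes (Nkx2-2, Sox14, Tal1, Gata2 and Gata3, factors of GABAergic neurons that the midbrain also uses) were higher in RKI homozygotes in 5 of 5 cases, with a median log2 fold change of 0.45 and 0 called. Gata3 was at 1.25 (SE 0.347) and Gata2 at 0.45 (SE 0.145). Of the 15 measured pretectum and midbrain genes, 13 were higher and 2 lower in RKI homozygotes, with a median of 0.53 and 0 called; it was 1.17 without A2 and 0.30 without A1. Pax3, a paired-homeobox gene of the dorsal midbrain, was at 0.90 (SE 0.327) and Dmbx1 at 1.27 (SE 0.573). Pax3 and Dmbx1 are expressed at low levels, at 2.64 and 0.381 CPM on average. The 2 lower genes were Otx2 at -0.17 (SE 0.111) and Barhl2 at -0.04 (SE 0.102). These 2 had the highest mean levels of the list, at 38.8 and 24.1 CPM.

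Lists of neighbouring regions had medians closer to 0. The list of 9 other thalamus genes had a median of 0.08 in RKI with 7 higher and 2 lower, with Ntng1 at 0.23 (SE 0.119) and Lhx2 at -0.19 (SE 0.0857); without A18 the median was 0.01. Habenula genes had a median of -0.08 with 2 of 9 higher, and Pou4f1 was at -0.51 (SE 0.298). Prethalamus and zona limitans genes had 0.16 with 6 of 7 higher, among them Six3 at 0.16 and Shh at 0.25, and 0.01 without A18. Telencephalon genes had -0.07 with 3 of 12 higher, among them Emx2 at -0.19 and Neurod2 at -0.14 on the lower side. None of these genes passed by edgeR.

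A16, lowest in Shox2, was also the lowest RKI embryo in the scores of the rostral thalamus and midbrain lists. The rostral thalamus score was 0.31, 0.20 and -0.19 in RKI homozygotes A1, A10 and A18, against -0.61, -0.12 and -0.68 in RKI wild types A2, A9 and A16. The pretectum and midbrain score was 0.15, 0.34 and -0.37 in RKI homozygotes A1, A10 and A18, against -0.23, -0.26 and -1.48 in RKI wild types A2, A9 and A16. The summed level of the 15 midbrain genes was 96.3 to 126 CPM in RKI homozygotes and 92.2 to 123 CPM in RKI wild types, 116 to 121 CPM in LC1 knockouts and 124 to 136 CPM in LC1 wild types. By that sum wild type A2, at 123 CPM, stood above homozygotes A1, at 116 CPM, and A18, at 96.3 CPM. The sum weighs genes by their level, and its largest terms were Otx2 and Barhl2, at 38.8 and 24.1 CPM on average. These were the 2 genes of the list that were lower in RKI homozygotes, while the score weighs all genes alike. A16 was likewise the lowest of the 12 for embryonic brain (-0.04), LIM relatives and cofactors (-0.16), Cajal-Retzius and cerebellum (-0.26) and neuron maturation (-0.15). It was the highest of the 12 for proliferation, at 0.42, head mesenchyme, at 0.24, and TCF and Wnt genes, at 0.19. The extreme scores of A16 were thus not limited to the rostral thalamus and midbrain lists. Of the defining midbrain markers, Pou4f2 had at most 1 count in any library, and En1 and En2 had 0 counts in 1 library. The part of midbrain content in the RKI difference of the members was not tested.

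Over the 12 embryos the pretectum and midbrain score went with Tcf7l2 at r of 0.92 (rho 0.86), 0.94 in RKI, 0.86 in LC1 and 0.72 without the 2 embryos farthest from the median score. Mab21l2 had 0.85 with it (rho 0.91), 0.81 in RKI, 0.81 in LC1 and 0.88 without the 2 farthest, and it ran against the telencephalon score at -0.87 (rho -0.83), -0.85 in RKI and -0.92 in LC1. For these 2 genes the relation to the midbrain list held in each experiment. Shox2 had 0.87 with the midbrain score (rho 0.52), 0.94 in RKI but -0.47 in LC1, and 0.54 without A16. With the rostral thalamus score Shox2 had 0.87 (rho 0.79), 0.85 in RKI, 0.39 in LC1 and 0.86 without A16. The spread of Shox2 within LC1 groups, an SD of 0.059, was no larger than its counting error. Its r values in LC1 therefore carry little information, here as well. Gbx2 and Lhx9 had 0.01 and 0.05 with the midbrain score, and 0.55 and 0.60 with the thalamus list (rho 0.59 and 0.54). With the thalamus list they had 0.75 and 0.82 in RKI but 0.27 and 0.38 in LC1. Gbx2 had as much with the embryonic brain list, 0.55, and 0.53 with the prethalamus and zona limitans list.

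**Figure D4:**
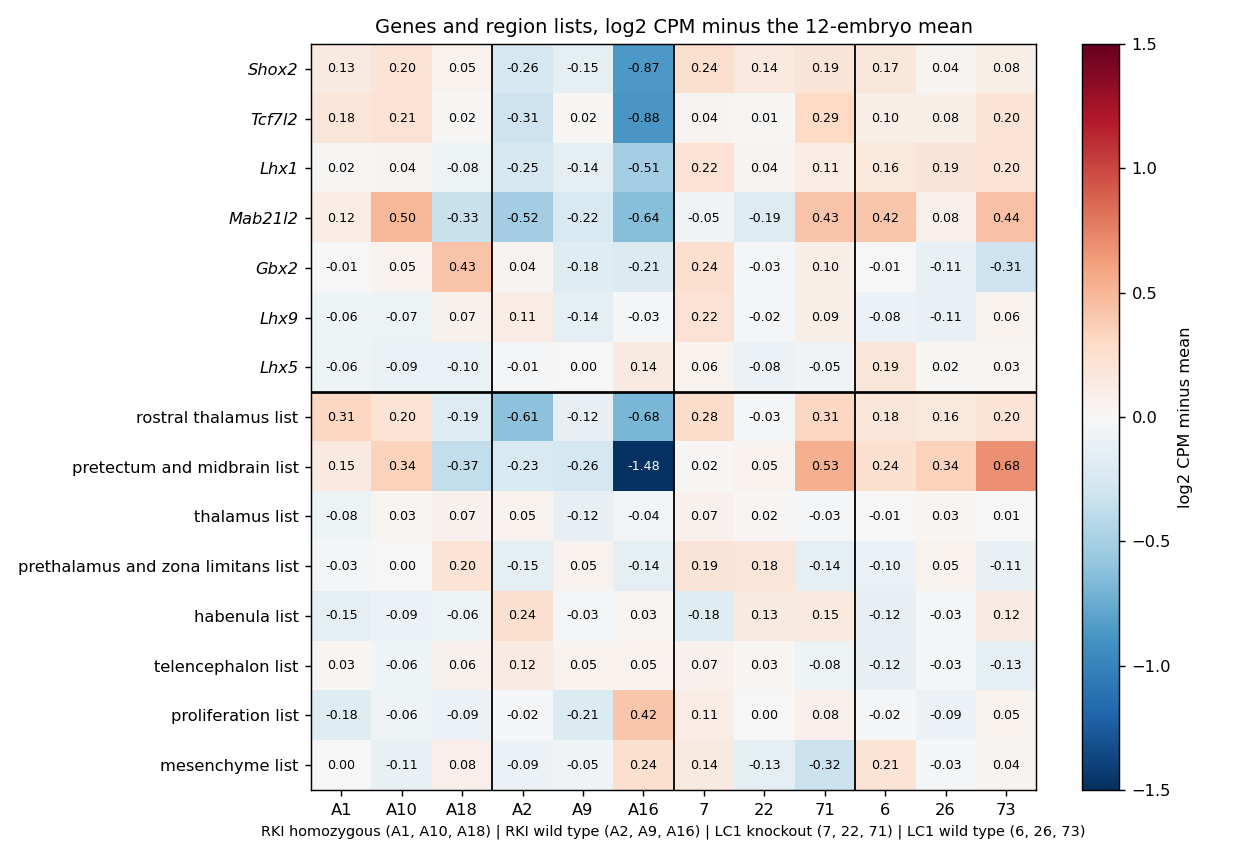
Each cell gives log2 CPM minus the mean over the 12 embryos, for the 7 genes above the line and for the mean of each region list below it, with embryos in columns by group. Column A16 is lowest for Shox2, Tcf7l2, Lhx1 and Mab21l2 and has -1.48 for the pretectum and midbrain list, while the thalamus list stays between -0.12 and 0.07.

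Among 11745 genes with a mean of at least 5 CPM, 48 had r above 0.8 with Shox2 over the 12 embryos, or 0.409%. The 10 most like it were Ret, Chrna4, Zbtb46, Wdr6, Scarb2, C1ql1, Nova1, Dpysl4, Plcb4 and Ptges3, with r of 0.86 to 0.92. Ret, a receptor tyrosine kinase, had 0.92 over the 12 embryos, 0.95 in RKI, -0.28 in LC1 and 0.19 without the 2 embryos farthest from the median, and Chrna4, a nicotinic receptor subunit, had 0.92, 0.94, 0.30 and 0.25 in the same order. As deviations from the 4 group means, the 10 most like Shox2 included Pacsin1, Lmx1b, Podxl2, Sorcs2, Jakmip1, Fbxw7, Psd2, Inpp4a and Sgsm2, with r of 0.94 to 0.96. These 2 lists of 10 share no gene. For Tcf7l2 the nearest were Chrna4, Ret and Nova1 (0.94 to 0.95), for Lhx1 Ntn1, C1ql1 and Uncx (0.90 to 0.93), and for Mab21l2 Mdp1, Gata3 and Asic4 (0.90 to 0.95). Gata3 had 0.91 with Mab21l2 over 12 embryos, 0.88 in RKI and 0.97 in LC1. Gbx2 was nearest to Rgs16, 1700025G04Rik and Gmeb2 (0.77 to 0.79), Lhx9 to Cul4a, Elk3 and 5830417I10Rik (0.85 to 0.88), and Lhx5 to Psmg1, Pecam1 and Smad6 (0.89 to 0.94).

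Estimated counts per transcript split 5 of the genes into isoforms. Of the members' transcripts 32 were tested in LC1 and 0 passed by edgeR, against 0 of 47772 transcripts in all, or 0%, with 1418 of these at an unadjusted p under 0.05. Shox2-002 made up 74.8% of Shox2 on average and Shox2-001 22.1%, and the share of Shox2-002 ran from 68.2% to 83.7% over the embryos. In RKI the 2 had log2 fold changes of 0.53 (SE 0.137) and 0.88 (SE 0.28), both on the higher side, like the gene as a whole, while Shox2-003 was at 0 in 6 libraries. Tcf7l2 was spread over 22 listed transcripts, of which 18 passed the filter and 3 were at 0 in all libraries. Tcf7l2-007 held 60.9% of the estimate, Tcf7l2-006 10.1% and Tcf7l2-005 7.35%. In RKI their log2 fold changes were 0.58 (SE 0.196), 0.81 (SE 0.176) and 0.20 (SE 0.246). Lhx1-001 held 80.1% of Lhx1, and Lhx9 was divided over Lhx9-005 at 35.3%, Lhx9-004 at 29.5% and Lhx9-001 at 13.1%, with a further transcript at 20.1%.

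Before adjustment 2 transcripts of Tcf7l2 and 1 of Lhx1 had a p under 0.05 in LC1, all of them minor isoforms. Lhx1-004 averaged 5.47 ± 0.64 CPM in knockouts and 7.97 ± 0.415 CPM in wild types (SD, n = 3 each), with a log2 fold change of -0.54, SE 0.223 and an edgeR adjusted p of 1. Tcf7l2-001 was estimated at 4.23, 2.94 and 4.39 CPM in LC1 knockouts 7, 22 and 71 and at 0 in all 3 LC1 wild types, and at 7.59 and 1.27 CPM in RKI homozygotes A10 and A18 and 0 in A1 and in all 3 RKI wild types. Its edgeR adjusted p in LC1 was 1. Tcf7l2-016 had the other direction, with 0.862 ± 0.684 CPM in LC1 knockouts and 2.8 ± 0.843 CPM in LC1 wild types (SD, n = 3 each). On the log2 scale it was at -1.70 (SE 0.687) in LC1, and its edgeR adjusted p was 1. An estimate of 0 can be a failed split between near-identical isoforms, and Tcf7l2-001 made up at most 2.51% of the gene in any embryo.

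Several of these genes overlap a neighbour on the other strand, and the strand setting of the counting was not given in the sources used here. Shox2 shares 153 of its 3311 exonic bases in GENCODE M21 with Rsrc1, which had log2 fold changes of 0.01 in RKI and -0.07 in LC1. Mab21l2 shares 1097 of its 3049 exonic bases with Lrba, within which it lies, and Lrba was at 0.02 in RKI and 0.00 in LC1. Gbx2 shares 946 of 2177 exonic bases with D130058E05Rik, which was at -0.09 in RKI (SE 0.305), and Lhx5 shares 69 of 2689 with Gm27199, at 0.09 in RKI (SE 0.183). Lhx1os, an antisense RNA gene that starts beside Lhx1 without overlapping it, was at 0.45 in RKI (SE 0.168) and -0.24 in LC1, with A16 the lowest of the 12. None of these neighbours passed by edgeR in LC1, and reads of a gene and its partner cannot be told apart where strand was not used.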

How the data were processed

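Per the file headers, the authors deposited whole-number counts and RPKM for each gene, transcript-level estimated counts, and tables of their comparisons with log2 fold changes and p-values. The submitters' processing notes list STAR 2.0.4b, Subread and featureCounts 1.4.5 beside edgeR and limma, with no role for any. Strand setting, build, annotation release and transcript tool: not given in the sources used here. Of 41264 rows of deposited gene counts, 574 repeated an identifier with equal counts and were dropped, leaving 40690. Deposited RPKM was proportional to the counts within 0.0072% over 11328 genes.

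Counts were tested with edgeR 4.0.16 in R 4.3.3 (quasi-likelihood test, TMM, filterByExpr), adjusted by Benjamini-Hochberg over all genes at 0.05. A single fit held the 12 libraries, with a mean for each of the 4 groups and a term for sex (7 residual degrees of freedom, biological coefficient of variation 6.94%). The SE is the log2 fold change over the square root of F. Deposited estimated counts were rounded first, without a model of their uncertainty. The log2 CPM has a prior count of 2. Alternatives included DESeq2 1.42.0 and limma-voom (limma 3.58.1). The code was tested on simulated data. Embryos are the replicates, their litters are not named, and counting errors cover counting error only.

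The 7 genes and 18 gene lists were chosen with earlier results of these data known, so lists have counts and medians but no test. Named genes are the 7 members, their transcripts with a mean of at least 0.5 CPM, the 2 genes of smallest p per list in LC1 and in RKI, the 10 highest r with Shox2 on each of 2 scales, and the 3 highest for each other member, among genes with at least 5 CPM. En1, En2, Pou4f2, Otx2, Barhl2, Atoh1, Ptf1a and, in the closing text, Lmx1b were named after their values were seen. A few genes that this rule names are not reported here. RefSeq windows were cut to 250 bases before the start.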

Additional observations from a re-analysis of the deposited data

How the results depend on the processing

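The log2 fold changes of the 7 genes kept their sign in all 3 comparisons under other size factors, library totals without TMM, no filter on low counts, DESeq2, limma-voom, no sex term and only the libraries of an experiment, wherever the value was not 0.00 when rounded. Tcf7l2 in LC1, at -0.01, changed sign when knockout 7 (0.03), knockout 22 (0.04) or wild type 73 (0.03) was left out, and its values without 1 embryo ran from -0.10 to 0.04. The cause was not tested. With no filter on low counts edgeR called 4 genes in LC1, 26 in RKI and 45 between the sexes, where more low-count genes entered the fit. Without 1 embryo the RKI count ran from 0 to 2 genes, with 1 without A1 and 2 without A9 or A10, and the LC1 count stayed at 0. Leaving out A9 or A10 leaves 1 RKI female, which the sex term then fits alone. Both settings therefore compare the same RKI males and are not separate results, here and for the list medians. The count of LC1 transcripts ran from 0 to 1, with 1 without knockout 22, and none was a transcript of the 7 genes. The median r over the 21 pairs ran from 0.03 to 0.39. Mab21l2 in LC1 was -0.45 without knockout 71, and Gbx2 in RKI 0.40 without A1. Between the sexes, Tcf7l2 was -0.11 without A9 and -0.59 without A10, each resting on the 1 RKI female left. Limits: 3 embryos a group, with 212 to 498 counts of Shox2 and 165 to 335 of Mab21l2 per library, do not resolve small changes, and the RKI values of Shox2, Tcf7l2 and Lhx1 lean on A16. No paired analysis was possible because no label names the litters and the groups share no embryo number.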

Other observations

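Among relatives and partners of the 7 genes, the LIM list had medians near 0, while most TCF and Wnt genes were lower in RKI homozygotes. Of 16 measured LIM-homeodomain relatives and cofactors, 9 were higher and 7 lower in RKI homozygotes, with a median log2 fold change of 0.01. The LC1 knockouts gave the same split, 9 and 7, with a median of 0.02. Lhx2 was at -0.19 in RKI (SE 0.0857) and the cofactor Ssbp4 at 0.12 (SE 0.0706), and Ssbp3 was at 0.08 in LC1 (SE 0.0565). Lmx1b, a LIM-homeodomain factor of midbrain and hindbrain neurons, had r of 0.86 with Shox2 over the 12 embryos and 0.17 without A16. Its log2 fold change was 0.27 in RKI (SE 0.456) and -0.23 in LC1 (SE 0.438). The relatives Mab21l1 and Gbx1 were at 0.01 (SE 0.072) and -0.03 (SE 0.115) in RKI, and at -0.05 and -0.15 in LC1. Of 10 TCF relatives, Wnt pathway and Wnt target genes, 1 was higher and 9 were lower in RKI homozygotes, the other direction from Tcf7l2, with a median of -0.12, or -0.07 without A16, and 0 called by edgeR. Sp5, a Wnt target, was at -0.23 (SE 0.123) and Tcf7l1 at -0.14 (SE 0.082). In LC1, 3 of the 10 were higher and the median was -0.01.

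Region lists gave small medians in LC1. All 7 prethalamus and zona limitans genes were higher in the knockouts, with a median of 0.15 and Fezf1 at 0.22 (SE 0.123). Of 12 telencephalon genes 10 were higher, with a median of 0.09 and Tbr1 at 0.15 (SE 0.0661). Pretectum and midbrain genes were lower in 11 of 15 cases, with a median of -0.22, which was 0.02 without wild type 73, and Pax3 was at -0.82 (SE 0.303). The LC1 medians of the thalamus, rostral thalamus and habenula lists were -0.01, -0.06 and 0.11, and that of the rostral thalamus was 0.11 without knockout 22. None of these genes passed by edgeR.

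Other tissues and cell states had 0 genes called in either experiment. The median for embryonic brain was 0.07 in RKI and -0.03 in LC1, for Cajal-Retzius and cerebellar genes -0.03 in both, and for neuron maturation 0.06 in RKI and -0.01 in LC1. In RKI the Cajal-Retzius and cerebellar median was 0.26 without A9 or without A10, and that of neuron maturation -0.01 without A16 and 0.17 without A9 or without A10. Proliferation was at -0.17 in RKI, or 0.01 without A16, and at 0.07 in LC1. Head mesenchyme was at -0.03 in RKI and -0.19 in LC1, and blood at 0.15 in RKI, or -0.02 without A9, and -0.09 in LC1. The 2 measured skin genes were at -0.39 in RKI and 0.05 in LC1, while 3 keratins did not pass the filter. Pmel, the 1 measured eye gene, was at -0.05 in RKI and -0.12 in LC1.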
